A study of Rattus norvegicus with 12 samples.

Results

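The genes described here encode the receptors of acetylcholine, serotonin, dopamine, noradrenaline, opioid peptides and cannabinoids in rat hippocampal cultures after oxygen-glucose deprivation (OGD). The members were the rat genes whose symbols begin with Chrna, Chrm, Htr followed by a digit, Drd, Adra1, Adra2 or Adrb, with Chrnb1, Chrnb3, Chrnb4, Oprm1, Oprd1, Oprk1, Oprl1 and Cnr1. Of the 15154 genes that the array probes could be named for, 50 were members, each represented by its brightest probe: 12 nicotinic, 5 muscarinic, 14 serotonin, 5 dopamine, 9 adrenergic, 4 opioid receptor genes and 1 cannabinoid receptor gene. The choice used symbols and not measured changes, but earlier results of these data were known when it was made.

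Nicotinic receptors and 5-HT3 receptors are ligand-gated cation channels, whereas the other receptors of the set signal through G proteins. Receptors coupled to Gq (Chrm1, Chrm3, Chrm5, Htr2a to Htr2c, Adra1a, Adra1b and Adra1d) activate phospholipase C, those coupled to Gs (Htr4, Htr6, Htr7, Drd1, Drd5 and the beta-adrenergic genes) raise cyclic AMP, and those coupled to Gi or Go lower it. In the hippocampus these receptors set the excitability of principal cells and interneurons and the release of glutamate and GABA, and the acetylcholine, noradrenaline and serotonin that act on them come from septal, locus coeruleus and raphe axons, whose cell bodies lie outside the dissected tissue.

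The cultures were primary hippocampal neurons of Wistar rat embryos (E18) kept for 14 to 15 days in vitro. OGD cultures were held in a glucose-free saline with sucrose in an anaerobic chamber for 2 h, Ctrl cultures in the same kind of saline with glucose in an air and CO2 incubator, and both were then returned to conditioned medium for 7 h or 24 h. Each of the 4 groups (Ctrl 7h, OGD 7h, Ctrl 24h and OGD 24h) had 3 replicates from separate cultures, and each replicate was hybridised to 1 one-colour Agilent array. The cultures also hold some glia and no treatment other than OGD was applied. Each slide carried 1 Ctrl array and 1 OGD array with equal recovery time and number. The array position on the slide was 1 in Ctrl 7h, 2 in OGD 7h, 3 in Ctrl 24h and 4 in OGD 24h. OGD and array position therefore cannot be told apart. The 7 h and 24 h arrays were scanned on different days, so that recovery time and scan day cannot be told apart either.

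The median signal of the 42877 non-control spots was 447 to 660 intensity units in Ctrl 7h, 234 to 426 in OGD 7h, 402 to 477 in Ctrl 24h and 131 to 546 in OGD 24h. OGD 24h replicate 1 (131 units) and OGD 7h replicate 1 (234 units) were the dimmest arrays, and between 78.3% and 87.1% of spots were well above background on an array. The labels name the tissue as hippocampal neurons, and all 16 neuron markers measured were well above background on every array. Array number and signal over background, not read depth, limit the precision here. Levels are given as log2 signal minus the array's own median, so that a level of -2 is a signal 4 times dimmer than the median spot of that array, and a log2 change is the OGD mean minus the Ctrl mean. Levels of different probes were not compared with each other. A gene is termed called where the unadjusted limma p was below 0.05 and the change was at least 2-fold, the thresholds of the study's methods. The p values printed are limma's, adjusted over all probes, and nominal stands for an unadjusted p below 0.05; where it is not given, the unadjusted p was above 0.05.

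Receptor signals were dim. Of the 50 genes, 25 were well above background on all 12 arrays, 18 on some arrays and 7 on none (Chrna6, Chrna10, Htr1b, Htr1f, Htr3b, Drd1 and Oprk1), for which the text gives no level or fold. The 25 genes detected throughout were Chrna1, Chrna4, Chrna5, Chrna7, Chrnb1, Chrnb4, Chrm3, Chrm4, Htr2a, Htr2b, Htr2c, Htr3a, Htr5b, Htr6, Drd2, Drd4, Drd5, Adra1a, Adra1b, Adra1d, Adra2b, Adrb1, Oprd1, Oprm1 and Cnr1. The 18 genes detected on some arrays included Chrna2, Chrna3, Chrna9, Chrnb3, Chrm1, Chrm2, Chrm5, Htr1a, Htr1d, Htr4, Htr5a, Htr7, Drd3, Adra2a, Adra2c, Adrb3 and Oprl1. The median processed signal of the 50 probes was between 47.9 and 102 units on the Ctrl arrays, 15 to 46.7 units on the OGD 7h arrays and 8.81 units on OGD 24h replicate 1, against 44.8 and 61.7 units on the other OGD 24h arrays. Spots not well above background had median processed signals of 1.57 to 7.17 units.

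At 7 h after OGD, 4 receptor genes were called lower and none higher. Chrna4, Chrm1, Htr4 and Htr6 made up 8% of the 50 genes, where 1.67% of all named genes were called lower and 1.7% were called higher. Without the fold threshold, 5 receptor genes were lower (10%, against 7.58% of all named genes) and 2 were higher (4%, against 4.25%). At 24 h, 6 genes were called lower (12%, against 2.1% of all named genes) and none higher (against 2.98%). These were Chrm1, Adra1b, Adra2a, Adra2c, Oprl1 and Cnr1. Among the 25 receptors well above background on all arrays, 2 were called lower at 7 h and 2 at 24 h. The named genes detected in the same way had shares of 1.01% and 2.36%. Among the other 25 receptors, 2 were called lower at 7 h and 4 at 24 h (Chrm1, Adra2a, Adra2c and Oprl1). The other named genes had shares of 3.38% and 1.42%. The count of 6 dropped to 1 without OGD 24h replicate 1, to 2 without Ctrl 24h replicate 1 and to 2 with the methods' t-test. It was 3 with slide as a fixed block. The 4 called at 7 h became 2 without OGD 7h replicate 1. At an unadjusted p below 0.05, 12 receptor genes were lower at 24 h (24%, against 7.43%) and none was higher (against 6.78%). No member passed Benjamini-Hochberg adjustment over all 30367 probes in limma, the lowest adjusted p being 0.101 at 7 h and 0.281 at 24 h, and no named gene did at either time. By the methods' t-test on the same values, 9 members were lower and 2 higher at 7 h before adjustment and 6 were lower at 24 h, and none after adjustment.

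**Figure D1:**
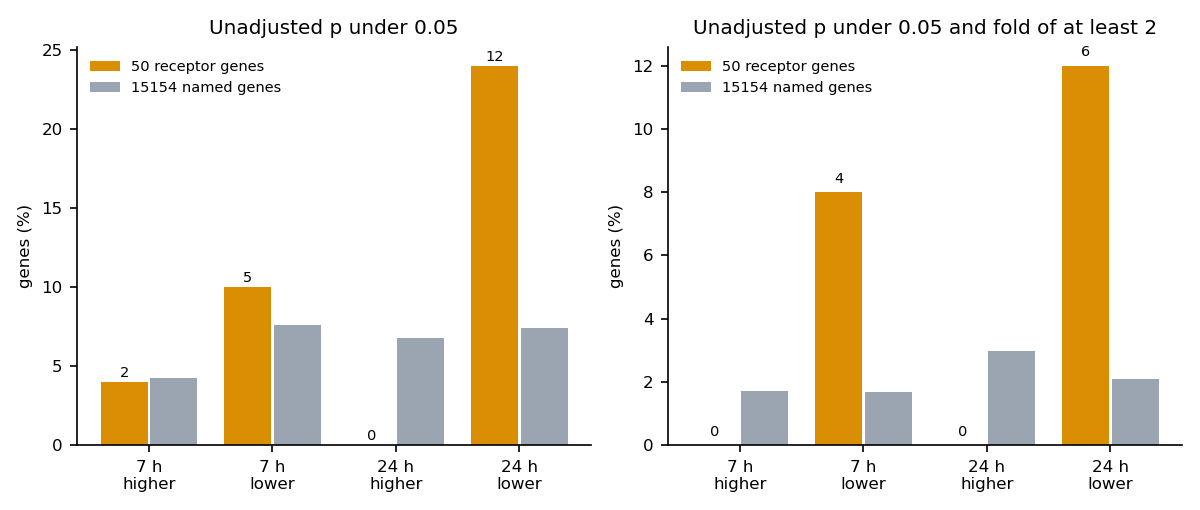
Percentage of the 50 receptor genes (orange, with their number above the bar) and of the 15154 named genes (grey) that were higher or lower after OGD, at an unadjusted p below 0.05 (left) and with a change of at least 2-fold in addition (right). The receptor genes exceeded the named genes in the lower direction, 24% against 7.43% at 24 h on the left and 12% against 2.1% on the right; without OGD 24h replicate 1, 1 gene in place of 6 was called lower at 24 h.

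The middle of the set was also below that of the array. The median log2 change of the 50 genes was -0.20 at 7 h and -0.22 at 24 h, against -0.03 and 0.04 for all named genes, and 30 and 33 of the 50 values were below 0. The median at 7 h turned to 0.10 without Ctrl 7h replicate 3, and normexp background correction turned both medians positive. Among the 25 receptors well above background on all arrays, the medians were -0.22 and -0.26, against -0.04 at both times for the 10923 named genes detected in the same way, and 16 and 20 of the 25 values were below 0. G protein-coupled receptors (36 genes) had medians of -0.20 and -0.26, and ligand-gated channels (14 genes) had medians of -0.13 and -0.06. At 24 h, 11 of the 36 G protein-coupled receptors and 1 of the 14 channels had a p below 0.05, all of them lower, where 7.43% of all named genes did so; the difference between the receptor types was not tested. The Gq-coupled genes had a median of -0.85 at 24 h with 8 of 9 below 0, the Gi-coupled genes -0.26 with 13 of 19 below 0, and the Gs-coupled genes -0.10 with 5 of 8 below 0. At 7 h the medians lay close together, at -0.18 for the Gq-coupled, -0.21 for the Gi-coupled and -0.25 for the Gs-coupled genes.

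**Figure D2:**
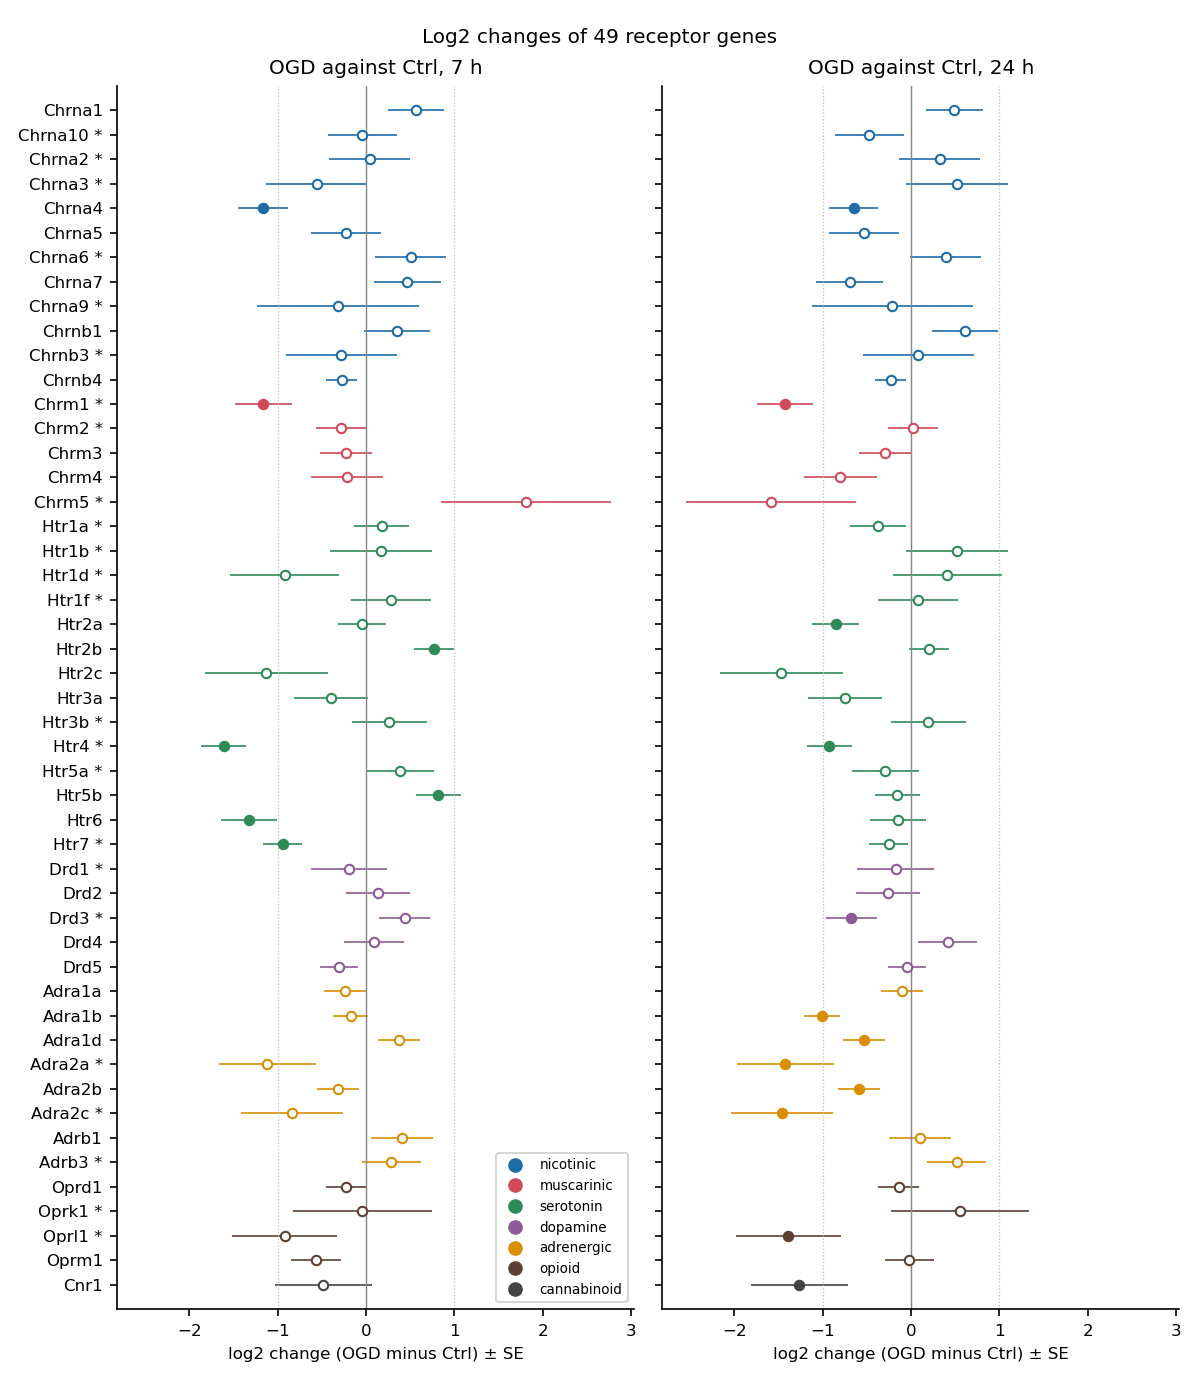
Log2 change of each of 49 receptor genes (OGD minus Ctrl, with its standard error) at 7 h and 24 h, coloured by family. Filled points have an unadjusted limma p below 0.05, an asterisk marks genes not well above background on all 12 arrays, and dotted lines mark a 2-fold change; filled points lie on both sides of 0 at 7 h (2 higher, 5 lower) and only to its left at 24 h (12 lower).

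Among the 12 nicotinic subunits, Chrna4 had a p below 0.05 at 7 h and 24 h and no other subunit did at either time. By this threshold 7.58% of all named genes were lower at 7 h and 7.43% at 24 h. Chrna4, the alpha4 subunit of the high-affinity nicotinic receptors of the brain, had levels of -0.66, -0.70 and -0.88 in Ctrl 7h and of -2.52, -1.70 and -1.52 in OGD 7h. All OGD arrays were below all Ctrl arrays, and the gene was lower on all 3 slides. The change at 7 h was -1.17 ± 0.28 (SE), or 2.25-fold lower, nominal, adjusted p = 0.249. At 24 h the levels were -0.63, -0.75 and -0.87 in Ctrl and -1.57, -0.92 and -1.71 in OGD, again without overlap, and the change was -0.65 ± 0.28 (nominal, adjusted p = 0.352). Without OGD 7h replicate 1 the change at 7 h was -0.87, still past the p threshold but under 2-fold, and at 24 h only 3 of the 12 fits that left out an array kept the unadjusted p below 0.05. Chrna7, whose homomeric channels are the other main nicotinic type of the hippocampus, changed by 0.47 ± 0.38 at 7 h (adjusted p = 0.667) and by -0.69 ± 0.38 at 24 h (adjusted p = 0.434). Chrna1 and Chrnb1, subunits of the muscle receptor, had values of 0.57 and 0.35 at 7 h and of 0.49 and 0.61 at 24 h, without passing the threshold. Chrna5 and Chrnb4, which lie on either side of Chrna3 in the genome, ranged from -0.53 to -0.22. Chrna2, Chrna3, Chrna9 and Chrnb3 were well above background on 1 to 5 arrays and had no p below 0.05.

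Of the muscarinic receptors, Chrm1 was called lower at both times. It encodes the M1 receptor, the main Gq-coupled muscarinic receptor of pyramidal cells. Its levels were -2.71, -2.66 and -3.03 in Ctrl 7h and -4.44, -3.73 and -3.71 in OGD 7h. They were -1.84, -2.16 and -2.02 in Ctrl 24h and -4.12, -2.81 and -3.37 in OGD 24h. The OGD arrays lay below the Ctrl arrays at both times and on all slides, with changes of -1.16 ± 0.32 at 7 h (nominal, adjusted p = 0.301) and -1.43 ± 0.32 at 24 h (nominal, adjusted p = 0.281). The latter is 2.69-fold lower. Replicate 1 was the lowest array of both OGD groups and was there not well above background. Without it Chrm1 was at -0.92 at 7 h, under 2-fold, and at -1.08 at 24 h, with both unadjusted p values below 0.05. Its level in Ctrl was higher at 24 h than at 7 h by 0.79 (nominal, adjusted p = 0.318). In intensity units the probe read 65.2 to 112 on the Ctrl arrays and 7.5 to 53.6 on the OGD arrays, over local backgrounds of 47 to 56.

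The other muscarinic genes did not reach the threshold at either time. Chrm3 (Gq-coupled) changed by -0.23 and -0.29 and Chrm4 (Gi-coupled) by -0.21 and -0.80 (adjusted p = 0.411 at 24 h). Chrm2, a Gi-coupled receptor found on cholinergic terminals and interneurons, was well above background on 7 arrays, with values of -0.28 and 0.02. Chrm5, a Gq-coupled receptor, had levels of -6.61, -6.08 and -4.79 in Ctrl 7h, -5.42, -4.41 and -2.21 in OGD 7h, -4.86, -5.01 and -1.95 in Ctrl 24h and -4.66, -5.95 and -5.97 in OGD 24h. Single arrays stood 2 or more log2 units above their group at 7 h and 24 h, the groups overlapped, and neither change (1.81 ± 0.96 and -1.59 ± 0.96) passed the test. The difference between the 2 times was -3.40 ± 1.36 (nominal, adjusted p = 1).

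Of the 14 serotonin receptor genes, 3 were lower and 2 higher at 7 h. Of all named genes, 7.58% were lower and 4.25% higher by this threshold. Htr4, Htr6 and Htr7 are the Gs-coupled serotonin receptors, and these were the 3 lower genes. Htr4 had levels of -4.64, -4.75 and -3.92 in Ctrl 7h and of -6.10, -6.10 and -5.94 in OGD 7h. The groups did not overlap and the fitted change was -1.61 ± 0.26 (nominal, adjusted p = 0.101), but no OGD 7h array and only 1 Ctrl 7h array was well above background, so that the measured difference is a bound, at least 1.19-fold lower. At 24 h its levels were -4.45, -4.69 and -4.44 in Ctrl, all well above background, and -5.61, -5.02 and -5.73 in OGD, with a change of -0.92 ± 0.26 (nominal, adjusted p = 0.292). Htr6 had levels of -1.10, -2.38 and -2.40 in Ctrl 7h and of -3.09, -3.40 and -3.37 in OGD 7h, and the change was -1.33 ± 0.32 (nominal, adjusted p = 0.248), or 2.51-fold lower. Ctrl 7h replicate 1 stood apart, and without it the change was -0.90, past the p threshold and under 2-fold. At 24 h the Htr6 levels of -3.14, -2.98 and -2.96 in Ctrl and -3.25, -3.38 and -2.89 in OGD overlapped, with a change of -0.15 ± 0.32 (adjusted p = 0.88). The Htr6 level in Ctrl 24h differed from that in Ctrl 7h by -1.07 (nominal, adjusted p = 0.177). Htr7 had levels of -3.76, -3.59 and -3.87 in Ctrl 7h and of -5.21, -4.32 and -4.51 in OGD 7h, a change of -0.94 ± 0.22 (nominal, adjusted p = 0.244), just under 2-fold. At 24 h its OGD levels of -3.75, -3.62 and -3.63 were all below the Ctrl levels of -3.32, -3.47 and -3.46, with a change of -0.25 ± 0.22 (adjusted p = 0.612).

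The 2 higher genes were Htr2b and Htr5b, both well above background on all arrays. Htr2b, a Gq-coupled receptor best known from non-neuronal tissue, had levels of -2.67, -3.05 and -2.89 in Ctrl 7h and of -2.18, -1.70 and -2.43 in OGD 7h. The change was 0.77 ± 0.23 (nominal, adjusted p = 0.309), or 1.7-fold, and the groups did not overlap. At 24 h the levels of -3.01, -2.80 and -2.80 in Ctrl and -2.55, -2.44 and -3.01 in OGD overlapped (0.20 ± 0.23, adjusted p = 0.704). Htr5b, which couples to Gi in rodents, had levels of -2.09, -2.05 and -1.96 in Ctrl 7h and of -1.49, -0.69 and -1.46 in OGD 7h, a change of 0.82 ± 0.26 (nominal, adjusted p = 0.325) or 1.77-fold. Its levels at 24 h were -1.66, -1.40 and -1.51 in Ctrl and -2.13, -1.36 and -1.55 in OGD (-0.15 ± 0.26, adjusted p = 0.823). Both genes were higher on all 3 slides at 7 h. Scaled on a spike-in probe, which moved the median of all named genes to -0.91, they read -0.11 and -0.06.

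Htr2a, the Gq-coupled receptor of cortical and hippocampal principal cells and interneurons, had overlapping levels at 7 h, -1.64, -1.77 and -2.29 in Ctrl and -1.84, -1.65 and -2.35 in OGD (-0.05 ± 0.27, adjusted p = 0.955). At 24 h the levels were -1.41, -1.68 and -2.16 in Ctrl and -2.43, -2.59 and -2.78 in OGD. The OGD arrays were below all Ctrl arrays, with a change of -0.85 ± 0.27 (nominal, adjusted p = 0.292), or 1.81-fold lower. Htr2c was at -1.13 ± 0.70 at 7 h (adjusted p = 0.564) and -1.47 ± 0.70 at 24 h (adjusted p = 0.385), with a larger standard error than the called serotonin receptors. Htr3a, the channel subunit expressed in interneurons, was at -0.40 and -0.75 at 7 h and 24 h, above the threshold. Htr1a, Htr1d and Htr5a, Gi-coupled receptors detected on 1 to 8 arrays, ranged from -0.92 to 0.41 with no p below 0.05.

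Of the dopamine receptors, Drd3 passed the p threshold, at 24 h. Drd2, Drd4 and Drd5 ranged from -0.30 to 0.41, none of them past the threshold. Drd3 had levels of -5.78, -5.13 and -4.79 in Ctrl 7h, -5.29, -4.84 and -4.27 in OGD 7h, -5.22, -5.02 and -5.15 in Ctrl 24h and -5.85, -5.81 and -5.75 in OGD 24h. Its probe was well above background on 3 arrays only, none of them in OGD 24h. The fitted values were 0.44 ± 0.29 at 7 h (adjusted p = 0.584) and -0.68 ± 0.29 at 24 h (nominal, adjusted p = 0.348), the latter being measured as at least 1.07-fold lower. Leaving out any 1 of the 6 arrays of 24 h took this value past an unadjusted p of 0.05, 4 of 12 such fits keeping it below, and with signals floored at 10 units the change was -0.16.

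Of the 9 adrenergic genes, 5 had a p below 0.05 at 24 h, all of them alpha receptors and all lower. By this threshold 7.43% of all named genes were lower. Adra1b, the Gq-coupled alpha1B receptor, had the lowest p of all members at 24 h. Its levels were 3.22, 3.19 and 2.96 in Ctrl 7h and 2.78, 3.04 and 3.02 in OGD 7h (-0.18 ± 0.20, adjusted p = 0.786). At 24 h they were 2.82, 2.48 and 2.47 in Ctrl and 1.33, 1.48 and 1.94 in OGD, without overlap and lower on all slides. The change of -1.01 ± 0.20 (nominal, adjusted p = 0.281) was 2.01-fold lower. It lay just past 2-fold, and without Ctrl 24h replicate 1, OGD 24h replicate 1 or OGD 24h replicate 2 it was -0.89, -0.88 and -0.95, each past the p threshold. Adra1d, also Gq-coupled, had levels of -0.88, -0.98 and -1.37 in Ctrl 7h and -0.72, -0.63 and -0.76 in OGD 7h (0.37 ± 0.23, adjusted p = 0.565). At 24 h the levels were -0.95, -1.59 and -1.57 in Ctrl and -2.24, -1.78 and -1.70 in OGD, a change of -0.53 ± 0.23 (nominal, adjusted p = 0.355). In 4 of the 12 fits with an array left out it stayed nominal, and it was -0.32 without Ctrl 24h replicate 1, -0.37 without OGD 24h replicate 1 and -0.02 with normexp, all above the p threshold. Adra1a was at -0.24 and -0.10.

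The alpha2 genes encode Gi-coupled receptors that act as autoreceptors and as postsynaptic receptors. Adra2a had levels of -1.16, -1.52 and -1.76 in Ctrl 7h and -3.19, -2.11 and -2.51 in OGD 7h, which did not overlap (-1.12 ± 0.55, adjusted p = 0.487). At 24 h the levels were -0.95, -1.55 and -1.84 in Ctrl and -4.26, -1.76 and -2.58 in OGD, and the change was -1.42 ± 0.55 (nominal, adjusted p = 0.318). Adra2c had levels of -2.67, -2.93 and -2.46 in Ctrl 7h and -3.94, -3.61 and -3.02 in OGD 7h (-0.84 ± 0.58, adjusted p = 0.599). At 24 h they were -1.63, -1.66 and -1.05 in Ctrl and -4.57, -2.06 and -2.08 in OGD (-1.46 ± 0.58, nominal, adjusted p = 0.324). For both genes OGD 24h replicate 1 was more than 1.5 log2 units below the other OGD 24h arrays and not well above background. Without it the changes were -0.73 and -0.63, and neither passed the p threshold. Adra2a at -1.18 without Ctrl 24h replicate 1 and Adra2c at -1.26 without Ctrl 24h replicate 3 did not pass it either. Adra2b had levels of 1.04, 0.89 and 1.13 in Ctrl 7h, 0.62, 0.70 and 0.79 in OGD 7h, 1.73, 1.61 and 1.41 in Ctrl 24h and 0.47, 1.01 and 1.49 in OGD 24h, with changes of -0.31 ± 0.24 (adjusted p = 0.638) and -0.59 ± 0.24 (nominal, adjusted p = 0.325). Without OGD 24h replicate 1 the Adra2b change at 24 h was -0.33, above the p threshold, and 8 of the 12 fits with an array left out kept it nominal. By the methods' t-test, Adra2a, Adra2b and Adra2c were nominal at 7 h and not at 24 h. In limma, where all groups share the estimate of spread, Adra2a and Adra2c were also nominal at 7 h once OGD 24h replicate 1 was left out. Of the Gs-coupled beta receptors, Adrb1 and Adrb3 had values of 0.41 and 0.29 at 7 h and of 0.10 and 0.52 at 24 h, neither past the threshold.

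Among the opioid and cannabinoid receptors, Oprl1 and Cnr1 were called lower at 24 h, and neither call held without OGD 24h replicate 1. Of the 12 fits with an array left out, 4 kept Oprl1 and 5 kept Cnr1 at an unadjusted p below 0.05. Oprl1, the nociceptin receptor, had levels of -3.71, -3.38 and -3.52 in Ctrl 7h and -5.50, -4.38 and -3.50 in OGD 7h (-0.92 ± 0.60, adjusted p = 0.573). At 24 h they were -3.27, -4.05 and -3.52 in Ctrl and -6.24, -3.83 and -4.94 in OGD, which overlapped (-1.39 ± 0.60, nominal, adjusted p = 0.349). Without OGD 24h replicate 1 the change was -0.77, above the p threshold. Its second probe was dimmer and well above background on 5 arrays, none of them in OGD 7h. The fitted value of this probe was -1.26 ± 0.40 at 7 h (nominal, adjusted p = 0.331), measured as at least 1.03-fold lower. At 24 h it was -0.89 ± 0.40 (adjusted p = 0.369). Cnr1, the CB1 receptor of GABAergic and glutamatergic terminals, had levels of 4.17, 3.89 and 3.08 in Ctrl 7h, 2.84, 3.70 and 3.14 in OGD 7h, 4.12, 3.66 and 3.24 in Ctrl 24h and 1.05, 2.72 and 3.45 in OGD 24h. The change was -0.49 ± 0.55 at 7 h (adjusted p = 0.782) and -1.26 ± 0.55 at 24 h (nominal, adjusted p = 0.353), and it was -0.59, above the p threshold, without OGD 24h replicate 1. The second Cnr1 probe varied less. It had levels of 3.23, 3.06 and 3.05 in Ctrl 24h and of 2.15, 2.56 and 2.28 in OGD 24h, without overlap, and its change was -0.78 ± 0.21 (nominal, adjusted p = 0.292), with 0.19 ± 0.21 at 7 h (adjusted p = 0.781).

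Oprm1, the mu opioid receptor, was at -0.57 at 7 h (adjusted p = 0.49) and -0.02 at 24 h by its brightest probe. A second Oprm1 probe was well above background on 7 arrays, none of them in Ctrl 7h. It gave 0.55 at 7 h (nominal, adjusted p = 0.387), a fitted 1.46-fold that is not a lower bound, and -0.55 at 24 h (nominal, adjusted p = 0.305). A further one gave 1.34 and -0.05, so that the direction at 7 h differed between probes of this gene. Oprd1, the delta receptor, was at -0.22 and -0.14 at 7 h and 24 h. The further probes of Drd2 and Htr2c had no p below 0.05, and that of Chrm2 was well above background on no array.

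**Figure D3:**
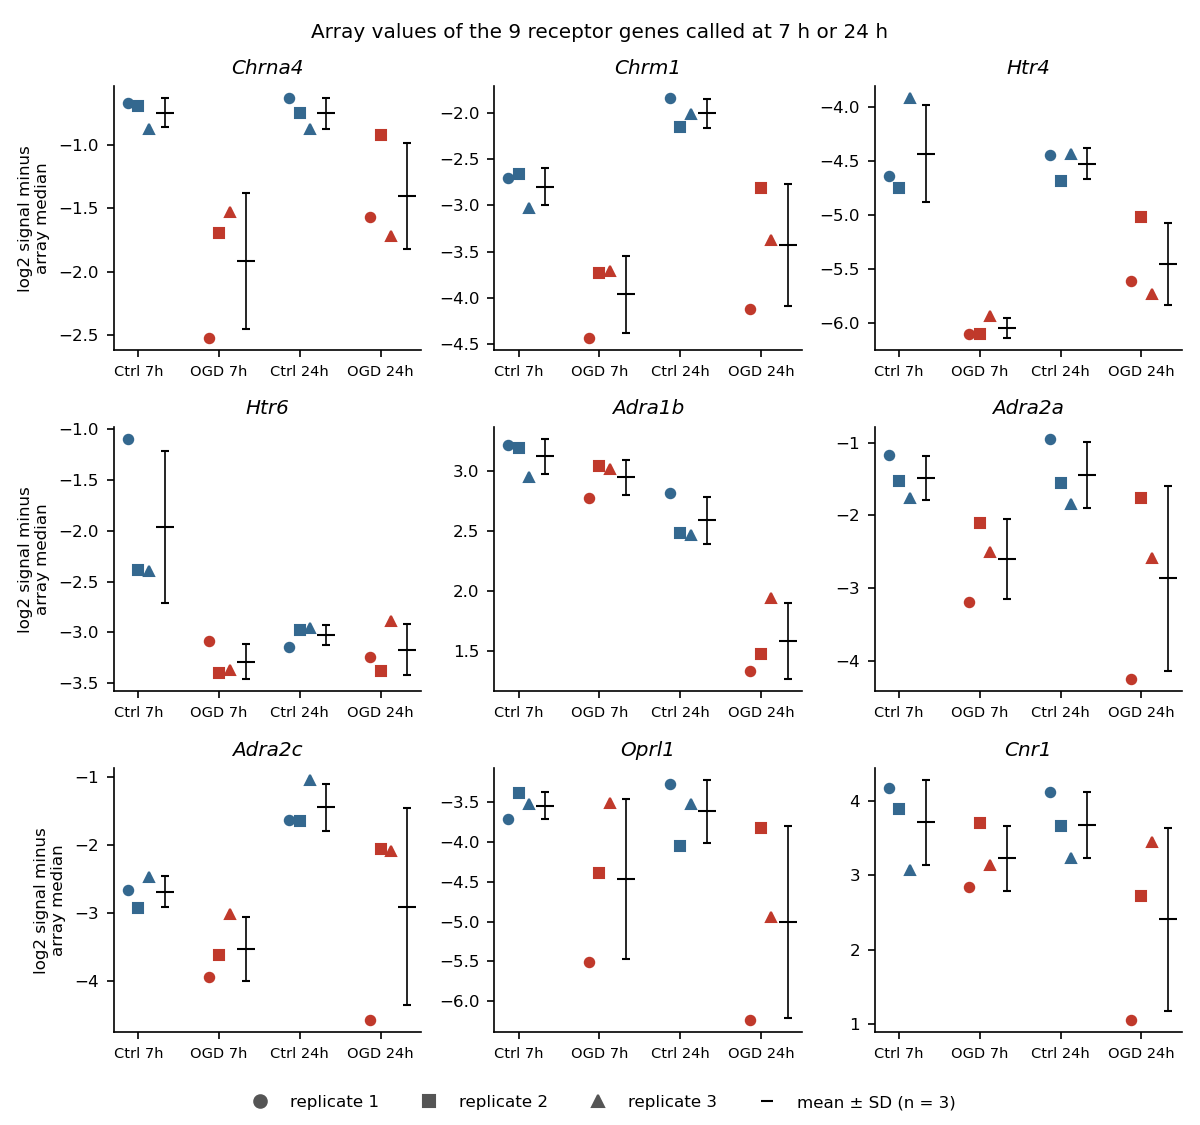
Log2 signal minus the array median of the 9 receptor genes called at 7 h or 24 h, on each array (Ctrl blue, OGD red, symbols by replicate), with the mean ± SD of the 3 arrays of each group in black. Chrna4, Chrm1, Htr4 and Adra2c have OGD arrays below Ctrl arrays at both times. In Adra2a, Adra2c, Oprl1 and Cnr1 the OGD 24h replicate 1 array lies more than 1 unit below the other OGD 24h arrays.

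**Figure D4:**
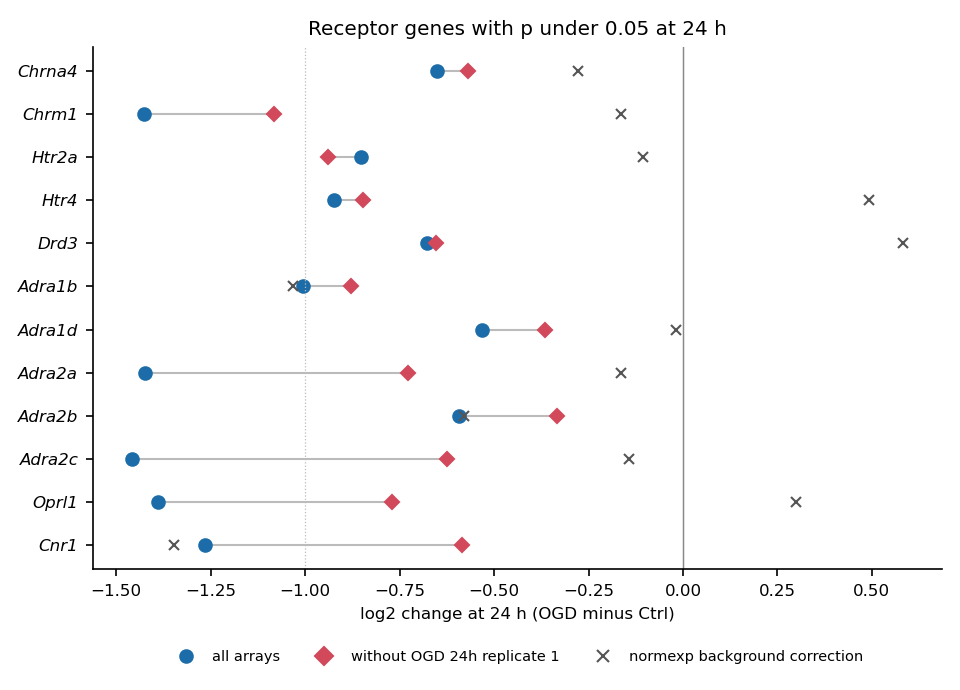
Log2 change at 24 h (OGD minus Ctrl) of the 12 receptor genes with an unadjusted limma p below 0.05, with all arrays (circles), without OGD 24h replicate 1 (diamonds) and with another background correction, normexp (crosses). Adra1b stayed near -1 in all 3 fits, Adra2a, Adra2c, Oprl1 and Cnr1 moved to between -0.77 and -0.59 without the array, and Htr4, Drd3 and Oprl1 turned positive with normexp.

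Several results depended on the background correction. With normexp on spot and local background medians and an offset of 50 units, no receptor was called lower at 7 h and 2 at 24 h, and the median change of the 50 genes was 0.72 at 7 h and 0.34 at 24 h in place of -0.20 and -0.22. With this offset the median of all named genes was 0.19 at 7 h and 0.15 at 24 h. On the arrays of the 4 groups, between 22 and 38 of the 50 probes had a processed signal below that offset, most of them (38) on OGD 24h replicate 1. Under this correction Chrm1 read 0.46 at 7 h and -0.16 at 24 h, Htr4 0.91 and 0.49, Htr7 0.77 and 0.42, Chrna4 -0.47 and -0.28 and Htr6 -0.09 and 0.38. The values of Adra1b and Cnr1 at 24 h were -1.03 and -1.35, and Htr2b and Htr5b at 7 h kept a p below 0.05.

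The effect of OGD differed between 7 h and 24 h at an unadjusted limma p below 0.05 for 6 receptor genes (12%, against 3.21% of all named genes), none after adjustment. In Adra1b (-0.83 ± 0.28, nominal, adjusted p = 1) the lower level was seen at 24 h and not at 7 h. Adra1d (-0.91 ± 0.33, nominal, adjusted p = 1), Drd3 (-1.11 ± 0.41, nominal, adjusted p = 1), Chrm5 (-3.40 ± 1.36) and Htr5b (-0.97 ± 0.36, nominal, adjusted p = 1) went from a value above 0 at 7 h to one below 0 at 24 h. Htr6 went the other way, from a low value at 7 h to one near 0 at 24 h (1.18 ± 0.45, nominal, adjusted p = 1). For Htr2a and Htr7 the difference did not reach the threshold. These counts took the brightest probe of each gene. The second Cnr1 probe (-0.97 ± 0.30) and the Oprm1 probe detected on 7 arrays (-1.10 ± 0.29) were nominal for this difference, not after adjustment. The brightest probes of these 2 genes were not nominal for it. Between the control groups, 6 receptors differed at a p below 0.05 (12%, against 15.4% of all named genes), and none after adjustment (against 0.139%). Beside Chrm1, Htr6 and the dim Htr1d, these were Adra1b (-0.53), Adra2b (0.57) and Chrm3 (-0.71).

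**Figure D5:**
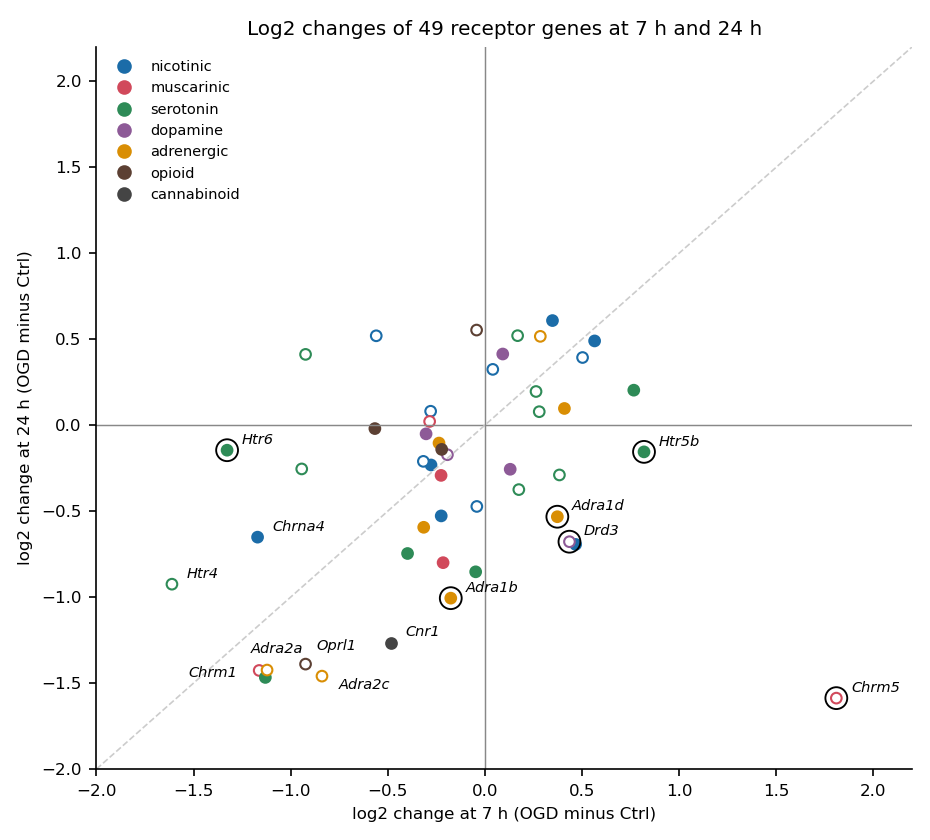
Log2 change at 24 h against log2 change at 7 h for 49 receptor genes, coloured by family; filled points were well above background on all 12 arrays, black rings mark the 6 genes whose changes differed between the times at an unadjusted p below 0.05, and the dashed line is equality. Htr6 lies near 0 at 24 h and at -1.33 at 7 h, Chrm1 is low on both axes (-1.16 and -1.43), and Chrm5 is at 1.81 at 7 h and -1.59 at 24 h.

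For 10 genes at 7 h and 9 at 24 h all OGD arrays were below all Ctrl arrays (20% and 18%, against 16.5% and 8.64% of all named genes), and for 6 genes at 7 h and none at 24 h they were above (12% and 0%, against 12.7% and 9.61%). Chrna4, Chrm1, Htr4, Htr7 and Adra2c were separated in the lower direction at both times. For 36 of the 50 genes RefSeq (GRCr8) gave a promoter sequence, and the 250 bases before the start were searched on both strands for GGGCGG (a GC box), TGACG (part of a cyclic AMP response element) and ACGTG (the core of hypoxia response elements); TGACG and ACGTG overlap in TGACGTG. They are shown for the separated genes that have an entry, and for the 2 genes higher at 7 h, with these letters in capitals.
Chrna4 (chr3:188534527-188534776, minus strand): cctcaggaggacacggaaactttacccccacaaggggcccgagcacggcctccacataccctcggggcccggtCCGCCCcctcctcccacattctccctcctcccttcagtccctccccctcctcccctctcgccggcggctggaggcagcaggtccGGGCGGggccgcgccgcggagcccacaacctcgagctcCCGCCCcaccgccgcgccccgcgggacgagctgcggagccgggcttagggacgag
Chrm1 (chr1:214996109-214996358, plus strand): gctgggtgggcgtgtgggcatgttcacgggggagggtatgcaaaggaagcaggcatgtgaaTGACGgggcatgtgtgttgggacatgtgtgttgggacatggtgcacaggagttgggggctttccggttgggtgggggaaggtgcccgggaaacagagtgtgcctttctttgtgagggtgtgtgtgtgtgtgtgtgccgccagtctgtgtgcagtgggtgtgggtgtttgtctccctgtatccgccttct
Htr7 (chr1:243173049-243173298, minus strand): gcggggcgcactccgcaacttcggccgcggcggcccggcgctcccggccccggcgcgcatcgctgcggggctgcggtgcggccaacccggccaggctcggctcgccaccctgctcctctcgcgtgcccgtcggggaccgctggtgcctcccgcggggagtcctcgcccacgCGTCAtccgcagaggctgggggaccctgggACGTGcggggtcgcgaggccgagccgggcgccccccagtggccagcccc
Adra2c (chr14:79697477-79697726, minus strand): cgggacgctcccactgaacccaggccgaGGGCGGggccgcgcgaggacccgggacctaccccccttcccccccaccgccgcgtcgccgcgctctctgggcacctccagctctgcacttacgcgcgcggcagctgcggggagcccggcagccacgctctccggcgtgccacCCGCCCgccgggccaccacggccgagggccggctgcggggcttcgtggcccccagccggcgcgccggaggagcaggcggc
Htr2b (chr9:94204088-94204337, minus strand): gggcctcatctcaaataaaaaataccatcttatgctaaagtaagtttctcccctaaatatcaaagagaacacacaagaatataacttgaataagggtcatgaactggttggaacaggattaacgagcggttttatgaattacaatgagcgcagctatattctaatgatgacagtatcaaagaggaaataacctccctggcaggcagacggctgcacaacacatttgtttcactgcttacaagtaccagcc
Htr5b (chr13:35252587-35252836, minus strand): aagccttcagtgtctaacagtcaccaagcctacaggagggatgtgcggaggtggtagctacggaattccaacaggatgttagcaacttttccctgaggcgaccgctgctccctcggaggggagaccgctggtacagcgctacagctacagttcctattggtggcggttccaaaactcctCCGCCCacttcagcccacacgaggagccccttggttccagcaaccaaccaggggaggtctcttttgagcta
GGGCGG occurred in 18 of the 36 receptor promoters (50%, against 30.5% of all 33469 promoters of this length), TGACG in 6 (16.7% against 18.2%) and ACGTG in 8 (22.2% against 16.6%). The receptor promoters held a median of 14.5 CpG pairs and 62% G and C, against 5 and 51.2% in all promoters. Each receptor gene was counted once, whereas the comparison took every entry of the promoter set, without restriction to the genes named on the array. The receptor promoters and the comparison were thus not matched. Chrna4, Htr7 and Adra2c had 26, 38 and 36 CpG pairs, Chrm1 and Htr5b had 7 and 10, and Htr2b had 4 and none of the letters searched. Chrna4 held 3 GC boxes and Adra2c held 2, whereas Htr7 held none. No data on these sequences were collected in the study, and a match is a description of the letters only.

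Genes that make, move and degrade the ligands, and genes downstream of the receptors, were counted in the same way, at an unadjusted p below 0.05. Of all named genes, 7.58% were lower and 4.25% higher at 7 h by this threshold, and 7.43% lower and 6.78% higher at 24 h. The list of transmitter enzymes and transporters had 23 measured genes. OGD lowered 4 of them and raised 1 at 7 h, and lowered 2 and raised 1 after 24 h. Ache, which encodes acetylcholinesterase, was called lower at both times, with changes of -1.13 (nominal, adjusted p = 0.408) and -1.58 (nominal, adjusted p = 0.292), with no overlap of the arrays. Slc22a3, a transporter that clears monoamines outside of synapses, was called lower at 7 h (-1.55, nominal, adjusted p = 0.433) and was at 0.10 at 24 h. Of 11 genes for opioid peptides and endocannabinoid enzymes, 10 values at 7 h and 9 at 24 h were below 0. At 7 h 2 of them passed as lower and 1 gene as higher, and at 24 h 4 were lower. Dagla, which makes the endocannabinoid 2-arachidonoylglycerol, was called lower at 24 h (-1.01, nominal, adjusted p = 0.341). Cnrip1, whose product binds the CB1 receptor, was called lower at 7 h (-1.04, nominal, adjusted p = 0.309) and was at -0.77 at 24 h (nominal, adjusted p = 0.329). Of 6 nicotinic receptor chaperones and Ly6 proteins, 1 gene passed in each direction at 7 h, and 2 genes were lower at 24 h, with Tmem35a, the chaperone NACHO, called lower at 24 h (-1.13, nominal, adjusted p = 0.311).

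Downstream of the receptors, 1 of 21 G protein subunit genes passed at 7 h, where it was lower. By 24 h 5 were lower, against 2 higher. The called genes were Gnao1, the neuronal Go alpha subunit (-1.07, nominal, adjusted p = 0.341), and Gng3 (-1.12, nominal, adjusted p = 0.292), both at 24 h. Of 21 genes for receptor kinases, arrestins and RGS proteins, which end G protein signals, 2 passed at 7 h, both higher. By 24 h 7 were lower, against 2 higher. Rgs16 was called higher at both times (1.42, nominal, adjusted p = 0.299, and 1.03, nominal, adjusted p = 0.31), and Rgs14 was called lower at 24 h (-1.32, nominal, adjusted p = 0.292). Of 25 second messenger enzyme genes, 2 were lower at 7 h, against 1 higher, and by 24 h 5 were lower, against 2 higher. Adcy3, an adenylyl cyclase, was called lower at both times (-1.09, nominal, adjusted p = 0.309, and -1.02, nominal, adjusted p = 0.292), and Plcb2, well above background on 2 arrays, was called higher at 24 h (1.62, nominal, adjusted p = 0.355).

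Markers of neurons moved with the receptors at 24 h. At an unadjusted p below 0.05, 7.58% of all named genes were lower and 4.25% higher at 7 h (7.43% and 6.78% at 24 h). The shares called were 1.67% lower and 1.7% higher at 7 h, and 2.1% and 2.98% at 24 h. Of 16 neuron markers, 3 passed the p threshold at 7 h and 8 at 24 h, each of them lower. At 24 h all 16 values were below 0 and the median was -0.57. The mean level of the list was 2.63 to 2.98 on the Ctrl 24h arrays and 1.74 to 2.43 on the OGD 24h arrays, and 2.59 to 2.87 and 2.10 to 2.59 at 7 h. The 4 called lower at 24 h were Slc17a7 (-1.46), Snap25 (-1.29), Thy1 (-1.28) and Syn1, and Slc17a7 and Eno2 were called lower at 7 h. Of 13 interneuron markers, 6 were lower at 24 h and none at 7 h, with Dlx5 (-1.09), Gad1 (-1.08) and Gad2 (-1.07) called. Their mean level was 2.89 to 3.79 in Ctrl 24h and 1.99 to 2.96 in OGD 24h. Their part in the receptor results was not tested, and in RNA from whole cultures fewer cells of a type and less RNA per cell cannot be told apart. Of 13 astrocyte markers, 11 had values above 0 at 7 h (median 0.23) and 6 at 24 h (median -0.05), with 1 higher at 7 h and none past the threshold at 24 h. Of 15 microglia markers, 10 had values above 0 at 7 h (median 0.44) and 14 at 24 h (median 0.38). Their mean level was -2.63 to -2.56 on the Ctrl 24h arrays and -2.79 to -1.54 on the OGD 24h arrays. Among the 15 microglia markers, with Ptprc at background throughout, Cx3cr1 was called higher at 7 h (1.09) and Cd68 at 24 h (1.03). Among 14 oligodendrocyte markers, Opalin was called higher (3.17) and Cspg4 lower at 7 h, and 1 gene was higher at 24 h without reaching 2-fold. Among 14 vascular and fibroblast markers, with Tek at background throughout, 2 were lower at 7 h and 2 higher at 24 h, of which Cldn5 was called lower at 7 h (-1.41) and Pdgfrb higher at 24 h (1.40).

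Of the receptors described here, Adra1b, Adra2a, Chrm1, Chrm2, Chrna4, Htr2c, Htr4, Htr6 and Oprl1 also stand in lists that the study selected on these same arrays, so that their values are not independent evidence of a direction.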

How the data were processed

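The members and gene lists were chosen with earlier results of these data known. The deposited scanner files hold one-colour Agilent intensity values (Feature Extraction 10.5.1.1), in which the processed signal is already background-subtracted by that software; the authors' own log2 value table, a median-centred form of the same signals, was used as an alternative. Arrays were Rat GE 4x44K v3 with 200 ng of RNA labelled per replicate. Probes were named through RefSeq accessions (18004 of 30367 matched); 12363 stayed unnamed. Flagged outlier spots were left out, spots of a probe averaged, and the array median of log2 signal subtracted. limma 3.58.1 (R 4.3.3) was fitted to all probes in 1 model of 4 groups, two-sided, with Benjamini-Hochberg adjustment; the pipeline was tested on simulated data. P values rest on a spread within groups that was pooled over the 4 groups of 3 cultures and drawn toward that of all probes. They do not measure the spread of the 2 compared groups alone. Genes with an unadjusted p below 0.05 at either time or between times are given in full. For probes with no array of a group well above background, a bound was computed from the lowest signal well above background on each array. Where the probe's own signal on an array was higher than that limit, it was used instead. Where this held on every array of the group, the value is the fitted fold and not a bound. Because the files hold no mean spot signal, normexp used the median. The alternatives were the scaling (75th percentile, quantile, 1 unsaturated spike-in probe), the background correction, a floor of 10 units, a filter on dim probes, the mean over probes, other models and the replicate block, and each array left out in turn. The fit on the slides of replicates 2 and 3, and normexp with scaled arrays, were chosen after seeing the data. The values of 1 receptor gene, which is counted among the 50, are not reported here.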

Additional observations from a re-analysis of the deposited data

Results flagged for a closer look

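For 6 receptor genes the log2 change at 24 h differed from that at 7 h at an unadjusted limma p below 0.05 (none after adjustment over all probes, 3.21% of all named genes being past the same threshold). The difference, 24 h minus 7 h, was -0.83 for Adra1b, -0.91 for Adra1d, -1.11 for Drd3, -3.40 for Chrm5, -0.97 for Htr5b and 1.18 for Htr6. When arrays were omitted singly, the Adra1b difference had a p below 0.05 in all 12 fits, Adra1d in 11, Drd3 and Htr5b in 10, Htr6 in 9 and Chrm5 in 6. Drd3 and Chrm5 were near background on several arrays. Only the brightest probe of each gene was counted here.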

How the results depend on the processing

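The number of receptor genes called lower, 4 at 7 h and 6 at 24 h, fell to 0 and 2 with normexp and to 0 and 1 with normexp on arrays scaled before the offset. It was 1 and 1 on the slides of replicates 2 and 3, and 2 at 7 h with spike-in scaling. At 24 h it was 2 with limma fitted to each time alone, 2 with the methods' t-test, and 3 with slide as a fixed replicate block, against 6 with slide as a random effect. With each array left out in turn it ranged from 2 (without OGD 7h replicate 1) to 6 (without OGD 24h replicate 1) at 7 h, and from 1 (without OGD 24h replicate 1) to 7 (without OGD 24h replicate 3) at 24 h, being 2 without Ctrl 24h replicate 1. Receptor genes called higher stayed at 0 at 24 h in every fit run, and numbered 2 at 7 h with normexp and 0 to 1 with arrays left out.

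The median change of the receptor genes, -0.20 at 7 h and -0.22 at 24 h, was 0.72 and 0.34 with normexp, 0.46 and 0.33 with normexp on scaled arrays, and -1.08 and -1.31 with the spike-in. The spike-in also moved the median of all named genes to -0.91 and -1.05, and the receptor genes are read relative to that shift. Normexp moved the median of all named genes to 0.19 and 0.15, and normexp on scaled arrays to 0.17 and 0.16. At 24 h the receptor median was -0.33 with dim probes left out and -0.37 with quantile scaling. With arrays left out it ranged from -0.20 to 0.10 (without Ctrl 7h replicate 3) at 7 h and from -0.32 (without OGD 24h replicate 1) to -0.14 at 24 h. By construction normexp adds 50 units, more than the processed signal of 22 to 38 of the 50 probes on each array; otherwise the cause was not tested.

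Under normexp, and on scaled arrays in brackets, the sign turned at 7 h for Adra2c, 0.43 (0.19), Chrm1, 0.46 (0.16), Oprl1, 0.70 (0.39), Htr2a, 0.50 (0.38), Htr4, 0.91 (0.50), and Htr7, 0.77 (0.47), and at 24 h for Drd3, 0.58 (0.56), Chrm5, 0.085 (0.063), Oprl1, 0.30 (0.28), Htr4, 0.49 (0.48), Htr5b, 0.31 (0.29), Htr6, 0.38 (0.35), and Htr7, 0.42 (0.40). With the spike-in it turned for Adra1d (-0.50), Drd3 (-0.44), Htr2b (-0.11) and Htr5b (-0.059) at 7 h and Htr2b (-0.89) at 24 h. Htr2a at 7 h was 0.022 with the 75th percentile, 0.031 on the slides of replicates 2 and 3, and from -0.24 to 0.15 with arrays left out, being above 0 without Ctrl 7h replicate 1, Ctrl 7h replicate 2 or OGD 7h replicate 3. Htr5b at 24 h was 0.0012 on those slides, and from -0.31 to 0.068 with arrays left out, being above 0 without OGD 24h replicate 1.

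Deviations of the Ctrl and OGD arrays of one slide from their group means correlated at -0.03, 0.31 and 0.18 at 7 h and at -0.12, 0.16 and -0.19 at 24 h over 20895 probes. Ctrl and OGD arrays of different slides correlated at -0.31 to 0.09 at 7 h, below the 0.31 and 0.18, and at -0.24 to 0.26 at 24 h. The replicate numbers were not taken as pairs, and the main fit held no slide block. With the fixed block 7 receptor genes were lower and 1 higher at 24 h at an unadjusted p below 0.05, against 12 and 0. Array number and dim signals limit these values.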
